A study of Mus musculus with 8 samples.

Results

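The kinases of the MAP kinase cascade and the dual-specificity phosphatases (DUSPs) were examined in bone marrow-derived macrophages (BMDMs) from control (LysM) and myeloid KLF2 knockout (K2KO) mice. The genes were taken by name, as every listed gene whose symbol starts with Map2k, Map3k, Map4k or Dusp and goes on with a number, or is Mapk and a number, leaving out Dusp7, whose values are given once among the phosphatases. This gave 65 of the 23761 rows in the table of expression values. Of these, 41 are kinases (13 MAPK, 7 MAP2K, 16 MAP3K and 5 MAP4K genes) and 21 are phosphatases. The other 3 rows are neither: an antisense RNA next to Map2k3 (Map2k3os), the kinase-lacking relative Map3k7cl, and a read-through transcript listed under the symbol Map2k7, whose exons share 1349 bases with Map2k7 itself.

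Both genotypes carry LysM Cre/Cre, a Cre recombinase placed in the lysozyme M gene that acts in myeloid cells, so the Cre and the altered lysozyme M alleles are common to all mice. The K2KO mice carry KLF2 flox/flox besides, the LysM mice do not. Mice were 3 months old, with 4 mice per genotype and 1 library of total RNA per mouse. Marrow was grown in medium conditioned by L929 fibroblasts, and the libraries are named as vehicle without saying what the vehicle was. The columns of the table give the genotype but not the mouse, and the libraries are called LysM0 to LysM3 and K2KO0 to K2KO3 here.

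In the MAP kinase cascade, MAP4Ks and small GTPases switch on MAP3Ks, which phosphorylate MAP2Ks, which in turn phosphorylate a MAPK on a threonine and a tyrosine of its activation loop. The MAPKs fall into the ERK, JNK and p38 groups, and in macrophages they carry signals from Toll-like and cytokine receptors to transcription factors and to mRNA stability. A part of the DUSPs removes both phosphates and so ends the signal, and many of these are themselves induced by it. The genes were taken by name, so the phosphatase counts and medians below are not limited to that part and include atypical DUSPs. The values below are levels of mRNA and hold no information on phosphorylation.

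Expression was given as FPKM, in which fragments mapped to a transcript are scaled by its length and by the fragments mapped in the library. This scaling is meant to make levels comparable between genes. Read counts are not known. Ratios between the lowest values placed the depth of a library, set against LysM0, at 0.887 to 1.34, with 0.974 to 1.24 in the other LysM libraries. Summed FPKM was 497253 to 551608 in the LysM libraries and 448235 to 501965 in the libraries labelled K2KO, which overlap. Gapdh, which every cell uses, had 0 to 0.305 FPKM in the LysM group and 0.208 to 0.4999 FPKM in the libraries labelled K2KO while Actb reached 2949 FPKM. The values thus do not follow the mRNA level for every gene. A gene listed at 0 is given only as that, and shares, sums and ratios between genes below describe the listed FPKM. Actb itself was lower in the libraries labelled K2KO, with means of 2820 and 2188 FPKM (log2 fold change -0.37; limma, adjusted p = 0.0239).

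Klf2 itself, the deleted gene (chr8:72319033-72321656, plus strand, GRCm38), was listed at 44.1, 52.9, 64.7 and 72.8 FPKM in the LysM libraries and at 45.5, 41.6, 59.2 and 59.3 FPKM in the libraries labelled K2KO. The groups overlap. Means were 58.7 ± 12.7 and 51.4 ± 9.22 FPKM (SD, n = 4 each), a log2 fold change of -0.18 ± 0.17 (SE) that did not pass the test (limma, adjusted p = 0.460; exact two-sided permutation test, p = 0.429). The value covers the whole gene, and whether the floxed part alone was lost was not tested. Since the gene does not mark the genotype here, the second group is written as the libraries labelled K2KO.

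The macrophage markers were present in every library, with Cd68 at a mean of 1807 FPKM and the 7 listed markers summing to 2958 to 3048 FPKM in the LysM group and 2884 to 3019 FPKM in those labelled K2KO. Mertk, an uptake receptor, was the macrophage marker that was higher in the latter (14.2 ± 1.68 and 18.3 ± 1.50 FPKM), and Lyz2, into which Cre is placed, was the one that was lower (18.6 ± 2.88 and 13.2 ± 1.73 FPKM). Of the 5 tested neutrophil markers 1 was lower, the granule gene Camp (13.6 ± 2.21 and 6.40 ± 2.53 FPKM), and the list, led by S100a9 at a mean of 129 FPKM, summed to 148 to 265 and 144 to 252 FPKM. Of the 3 megakaryocyte markers 1 was higher, the platelet chemokine gene Ppbp (2.03 ± 0.675 and 4.30 ± 1.16 FPKM). The list summed to 144 to 354 and 168 to 367 FPKM, nearly all of it Pf4 at a mean of 282 FPKM. Itga2b and Ppbp had means of only 1.24 and 3.17 FPKM, so the sum describes Pf4 and is no measure of megakaryocytes. After the correction for GC content described below, Mertk and Ppbp no longer passed (limma, adjusted p = 0.0752 and 0.0637), with log2 fold changes of 0.28 in place of 0.36 and of 1.00 in place of 1.07, while Lyz2 and Camp did. The 6 fibroblast markers summed to 0.458 to 1.65 and 0.767 to 3.71 FPKM, and the dendritic cell, T cell, B cell, mast cell and erythroid lists to at most 2.07 FPKM in any library. No marker was at 0 in all 8 libraries, and the part of other cells in the results below was not tested. In such bulk RNA, fewer cells of a type and less RNA per cell cannot be told apart.

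The cascade was expressed over a wide range, and 1 MAPK gene and 1 phosphatase gene stood far above their relatives. Mapk3, which encodes ERK1, had a mean of 255 FPKM over the 8 libraries and made up 70.0% of the summed FPKM of the MAPK genes. Dusp1, the phosphatase of p38 and JNK that macrophages induce early, had a mean of 305 FPKM and made up 66.3% of the DUSP sum. No other kinase or phosphatase gene of the set had a mean above 100 FPKM. The most abundant MAP2K was Map2k2 (MEK2, 42.0% of its class), the most abundant MAP3K was Map3k11 (MLK3, 33.3%), and the MAP4Ks were more even, with Map4k4 at 29.4%.

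**Figure D1:**
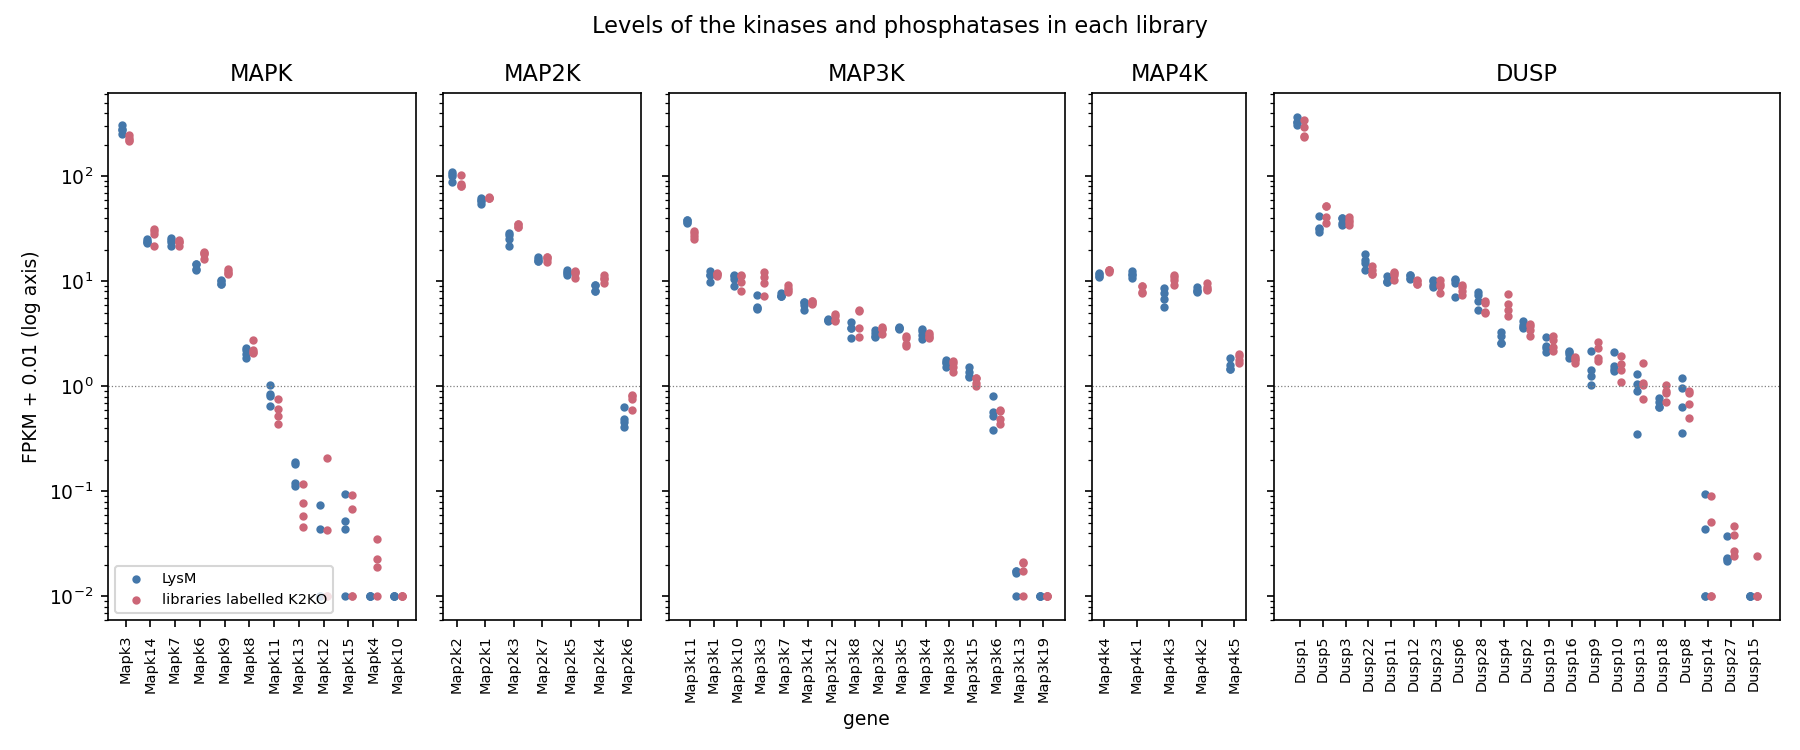
FPKM of 40 kinase and 21 phosphatase genes by class, on a log axis after adding 0.01, with 1 point per library (blue, LysM; red, libraries labelled K2KO) and a dotted line at 1. Mapk3 and Dusp1 lie above 200 FPKM in every library, and 15 genes have means under 1.

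Of the 62 kinases and phosphatases, 47 had a mean of at least 1 FPKM and were tested. The 10 kinases below this level were Map2k6, Map3k6, Map3k13, Map3k19, Mapk4, Mapk10, Mapk11, Mapk12, Mapk13 and Mapk15, and the 5 phosphatases were Dusp8, Dusp14, Dusp15, Dusp18 and Dusp27. Mapk10, which encodes the JNK3 known from neurons, and Map3k19 were listed at 0 in all 8 libraries. Nearest to the level were Dusp18, with means of 0.680 and 0.870 FPKM in the LysM libraries and those labelled K2KO, and Dusp8, with 0.779 and 0.730 FPKM. Mapk11, which encodes p38 beta, was listed at 0.643 to 1.02 and at 0.430 to 0.746 FPKM. Map2k6, a p38 activator beside Map2k3, was listed at 0.399 to 0.624 and at 0.591 to 0.820 FPKM. These 15 genes enter no count of differences below. The libraries of a genotype agreed more closely for the kinases, with a median coefficient of variation of 7.43% in the LysM and 7.12% in the libraries labelled K2KO over 31 genes, than for the phosphatases, with 13.0% and 12.6% over 16 genes.

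Genotypes were compared with limma on log2(FPKM + 0.1) over all 10920 genes with a mean of at least 1 FPKM, which understates the change of low genes. Differentially expressed genes had a Benjamini-Hochberg adjusted p under 0.05 together with a log2 fold change beyond 0.26 in either direction. Of all genes tested, 18.4% passed, 9.84% as higher and 8.61% as lower in the libraries labelled K2KO. Of the 31 tested kinases, 10 passed, 6 higher (Map3k3, Map4k3, Map2k3, Mapk6, Mapk9 and Map2k4) and 4 lower (Mapk3, Map3k5, Map3k11 and Map4k1). Of the 16 tested phosphatases, 1 passed, Dusp4, which was higher. With Dusp7, which was left out by name, it would be 2 of 17, both higher. The median log2 fold change was 0.09 over the kinases, -0.09 over the phosphatases and 0.01 over all genes. After the correction for GC content described below, these medians were 0.05, -0.04 and -0.01. The shares, 32.3% of the kinases and 6.25% of the phosphatases, are given as descriptions, and their difference from the background was not tested. The phosphatase share was below that of all genes here, but above it without LysM3 (1 of 16, beside 337 of 10920 genes) and after a correction for GC content (12.5% beside 10.1%). It was also above it without K2KO2 (1 phosphatase, beside 496 genes) and with no filter on low values (1 of 21, beside 483 of 23761). The same held with a log2 fold change over 1 (1 of 16, beside 110 of 10920). With the column number as a block besides the GC correction, 2 phosphatases passed beside 868 genes.

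The groups of 4 libraries did not overlap in 23.1% of all genes tested, in 12.9% with the libraries labelled K2KO higher and in 10.2% with them lower. Among the kinases this held for 12 of 31, 7 higher and 5 lower, and among the phosphatases for 2 of 16, Dusp4 (higher) and Dusp12 (lower). Of the 11 differentially expressed members, 10 had no overlap, the exception being Map3k3. The counts depended on single libraries: 6 kinases passed without LysM1, 3 without LysM3, 5 without K2KO1 and 4 without K2KO2, where the same fits over all genes passed 736, 337, 726 and 496 in place of 2014. Without LysM0, 3 phosphatases passed, where the same fit over all genes passed 2332. With no filter on low values, and with an ordinary least squares fit, Map2k3, Map2k4, Map3k3, Map4k3 and Mapk3 lost their call (adjusted p = 0.0664 to 0.0870 and 0.0527 to 0.0666). A correction for GC content, described below, ended the calls of Map4k3, Mapk9, Map2k4 and Mapk3. The losses given for a gene below come on top of these.

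**Figure D2:**
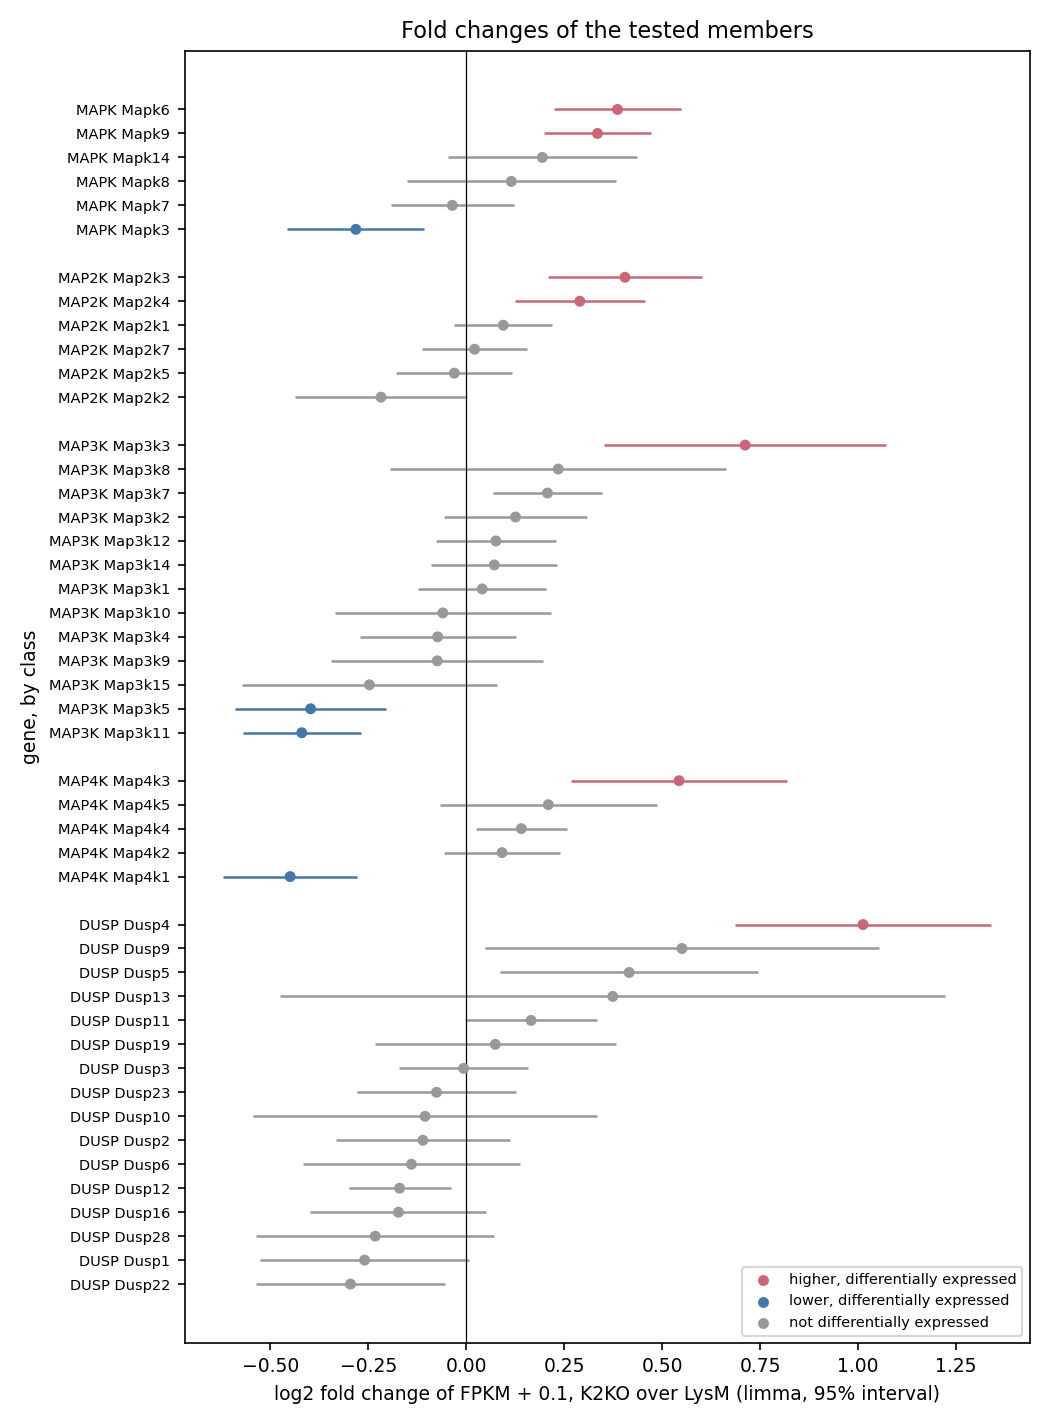
log2 fold changes of FPKM + 0.1 for 46 tested genes, libraries labelled K2KO over LysM, by class, as points with 95% intervals from limma (red, higher; blue, lower; grey, not differentially expressed). Dusp4 lies farthest from 0, at 1.01, and members of every kinase class lie on both sides of 0.

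At the head of the cascade, 1 of the 5 tested MAP4Ks was higher and 1 was lower. Map4k3 (GLK, ENSMUSG00000024242.14, chr17:80580512-80728485, minus strand), a kinase upstream of JNK and of mTORC1, was listed at 8.65, 7.65, 6.80 and 5.71 FPKM in the LysM libraries and at 9.26, 11.4, 10.2 and 11.0 FPKM in those labelled K2KO. All 4 of the latter were higher, with a log2 fold change of 0.54 ± 0.12 (SE; limma, adjusted p = 0.0207), and the call was lost without LysM2, LysM3, K2KO1 or K2KO2 (adjusted p = 0.0536 to 0.0633) and after the correction for GC content (0.41; adjusted p = 0.0616). Map4k1 (HPK1, ENSMUSG00000037337.11, chr7:28982050-29003279, plus strand), a kinase of blood cells best known as a brake on antigen receptor signals, was listed at 10.8, 11.7, 12.5 and 11.4 FPKM and at 7.90, 9.11, 9.10 and 7.74 FPKM. All 4 libraries labelled K2KO were lower here, with a log2 fold change of -0.45 ± 0.08 (limma, adjusted p = 0.0111), and the call held with any single library left out. Map4k4 was higher without overlap but by little, 11.1 to 12.1 FPKM against 12.3 to 12.9 FPKM (log2 fold change 0.14; limma, adjusted p = 0.0792). The other 2 MAP4Ks, Map4k2 and Map4k5, had log2 fold changes of 0.09 and 0.21 that did not pass.

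The MAP3Ks, which sense different upstream signals, held the largest kinase difference, an increase, and 2 of the 4 kinase decreases. Map3k3 (MEKK3, ENSMUSG00000020700.11, chr11:106084613-106155446, plus strand), which activates the ERK5 branch through Map2k5 and acts in Toll-like and IL-1 receptor signalling, was listed at 7.36, 5.65, 5.46 and 5.58 FPKM in the LysM libraries and at 11.0, 12.2, 9.63 and 7.23 FPKM in those labelled K2KO. The lowest of the latter, K2KO3, fell just under the highest of the former, LysM0. The log2 fold change was 0.71 ± 0.16 (limma, adjusted p = 0.0204), and the call was lost without LysM1, LysM2, LysM3, K2KO0, K2KO1 or K2KO2 (adjusted p = 0.0541 to 0.0794).

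Map3k11 (MLK3, ENSMUSG00000004054.8, chr19:5688742-5702865, plus strand), a mixed-lineage kinase upstream of JNK, was the most abundant MAP3K, at 38.2, 36.5, 35.9 and 38.1 FPKM in the LysM libraries and 28.6, 30.4, 25.2 and 27.1 FPKM in those labelled K2KO. The groups were apart by more than their spread, with a log2 fold change of -0.42 ± 0.07 (limma, adjusted p = 0.00954), and leaving out any single library kept the call. Map3k5 (ASK1, ENSMUSG00000071369.10, chr10:19934472-20142753, plus strand), a kinase released by oxidative stress that drives JNK and p38, was listed at 3.49, 3.58, 3.64 and 3.57 FPKM and at 2.85, 2.54, 2.41 and 2.99 FPKM. All 4 libraries labelled K2KO were lower, by -0.40 ± 0.09 in log2 units (limma, adjusted p = 0.0179), and the call was lost by a small margin without LysM1, LysM3, K2KO1 or K2KO2 (adjusted p = 0.0511 to 0.0633).

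Map3k7, which encodes TAK1, the kinase through which Toll-like and TNF receptors reach both NF-kB and the MAPKs, was listed at 7.18 to 7.71 FPKM and at 7.91 to 9.15 FPKM. The groups did not overlap and the adjusted p was 0.0434 (limma), but the log2 fold change of 0.21 was under the limit, so it is not among the called genes. After the correction for GC content described below, the change of Map3k7 was 0.044 (limma, adjusted p = 0.583). Map3k8 (TPL2), which links the same receptors to ERK, was listed at 2.89 to 4.11 FPKM and at 2.96 to 5.32 FPKM, with overlap (log2 fold change 0.23, 95% interval -0.20 to 0.66; limma, adjusted p = 0.391). Map3k14 (NIK), the kinase of the non-canonical NF-kB pathway, gave 0.07 (95% interval -0.09 to 0.23), Map3k1 gave 0.04 (-0.12 to 0.20) and Map3k10 gave -0.06 (-0.34 to 0.22). Map3k15 was lower without overlap, at 1.22 to 1.51 and 0.987 to 1.19 FPKM, but did not pass (log2 fold change -0.25; limma, adjusted p = 0.235), and 603 bases of its exons overlap those of Pdha1 on the other strand. The remaining 4 tested MAP3Ks, Map3k2, Map3k4, Map3k9 and Map3k12, lay between -0.07 and 0.13, with a smallest adjusted p of 0.281 (limma).

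Of the 6 tested MAP2Ks, 2 passed, Map2k3 and Map2k4. Map2k3 (MKK3, ENSMUSG00000018932.9, chr11:60932033-60952811, plus strand), which activates p38, was listed at 29.1, 27.3, 25.2 and 21.7 FPKM in the LysM libraries and at 33.0, 33.2, 35.0 and 35.1 FPKM in those labelled K2KO. The latter were all higher and close together, with a log2 fold change of 0.40 ± 0.09 (limma, adjusted p = 0.0183), and the call was lost without K2KO2 (adjusted p = 0.0582). The antisense RNA Map2k3os stood at 1.14 to 1.90 and 1.41 to 2.67 FPKM (log2 fold change 0.26; limma, adjusted p = 0.427). Map2k4 (MKK4, ENSMUSG00000033352.11, chr11:65688243-65788297, minus strand), which activates JNK, was listed at 9.15, 8.13, 9.25 and 7.99 FPKM and at 10.5, 11.3, 10.7 and 9.68 FPKM. It was higher in all 4 libraries labelled K2KO, by 0.29 ± 0.07 in log2 units (limma, adjusted p = 0.0277), and lost the call without LysM1, LysM3, K2KO0, K2KO1 or K2KO2 (adjusted p = 0.0709 to 0.0948) and after quantile normalization, where the change of 0.258 was under the limit. After the correction for GC content it was 0.18 (adjusted p = 0.0838).

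The other 4 tested MAP2Ks did not pass. Map2k1 (MEK1) was listed at 55.0 to 62.2 and 62.1 to 63.8 FPKM, with a log2 fold change of 0.09 (95% interval -0.03 to 0.22), and Map2k2 (MEK2) at 88.0 to 109 and 80.1 to 102 FPKM, with -0.22 (-0.44 to 0.00; limma, adjusted p = 0.136). Without K2KO3, Map2k2 passed as lower (log2 fold change -0.30, adjusted p = 0.0281), while after the correction for GC content described below its log2 fold change was -0.048 (adjusted p = 0.644). The level of Map2k2 over that of Map2k1, a ratio chosen after the values were seen, was 1.72 ± 0.202 in the LysM libraries and 1.38 ± 0.146 in those labelled K2KO, with overlap. Map2k5, the activator of ERK5, gave -0.03 (-0.18 to 0.12) and Map2k7, the second JNK activator, gave 0.02 (-0.11 to 0.15).

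At the end of the cascade, 1 abundant ERK gene was lower and 2 genes of other groups were higher. Mapk3 (ERK1, ENSMUSG00000063065.13, chr7:126759601-126765819, plus strand) was listed at 274, 311, 255 and 281 FPKM in the LysM libraries and at 215, 234, 223 and 248 FPKM in those labelled K2KO. The groups did not overlap, and the log2 fold change was -0.28 ± 0.08 (limma, adjusted p = 0.0347). The call was lost without LysM1, LysM3, K2KO0, K2KO1 or K2KO2 (adjusted p = 0.0752 to 0.095), after quantile normalization, where the change was -0.08 (adjusted p = 0.448), and after upper-quartile scaling, where it was -0.24 and under the limit. After the correction for GC content it was -0.12 (adjusted p = 0.207).

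Mapk9 (JNK2, ENSMUSG00000020366.18, chr11:49846751-49886421, plus strand) was listed at 9.95, 9.41, 10.3 and 9.35 FPKM in the LysM libraries and at 11.9, 13.1, 11.7 and 12.6 FPKM in those labelled K2KO. All of the latter were higher, by 0.33 ± 0.06 in log2 units (limma, adjusted p = 0.0123), and the call was lost without LysM3 (adjusted p = 0.052) and after the correction for GC content, where the change was 0.21 (adjusted p = 0.0542). Mapk8 (JNK1), another JNK gene, was lower in level, at 1.86 to 2.32 and 2.08 to 2.73 FPKM, and did not pass (log2 fold change 0.11, 95% interval -0.15 to 0.38). Mapk6 (ERK3, ENSMUSG00000042688.16, chr9:75369062-75410005, minus strand), an atypical MAPK that no classical MAP2K activates, was listed at 14.5, 14.5, 12.8 and 13.0 FPKM and at 16.2, 18.9, 18.7 and 18.1 FPKM. It was higher in all 4 libraries labelled K2KO, with a log2 fold change of 0.39 ± 0.07 (limma, adjusted p = 0.0129), and lost the call without LysM3 (adjusted p = 0.0542). A processed pseudogene that the table does not list, Gm49037, is identical to Mapk6 over 384 bases, so reads of both cannot be told apart there. Mapk14 (p38 alpha), the main p38 of macrophages, was listed at 23.0 to 25.1 and 21.7 to 31.3 FPKM (log2 fold change 0.19, 95% interval -0.05 to 0.43; limma, adjusted p = 0.209). Its lowest library was K2KO3, without which it passed as higher (0.31, adjusted p = 0.00999). Mapk7 (ERK5), the target of the Map3k3 and Map2k5 branch, gave -0.04 (limma, adjusted p = 0.730).

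**Figure D3:**
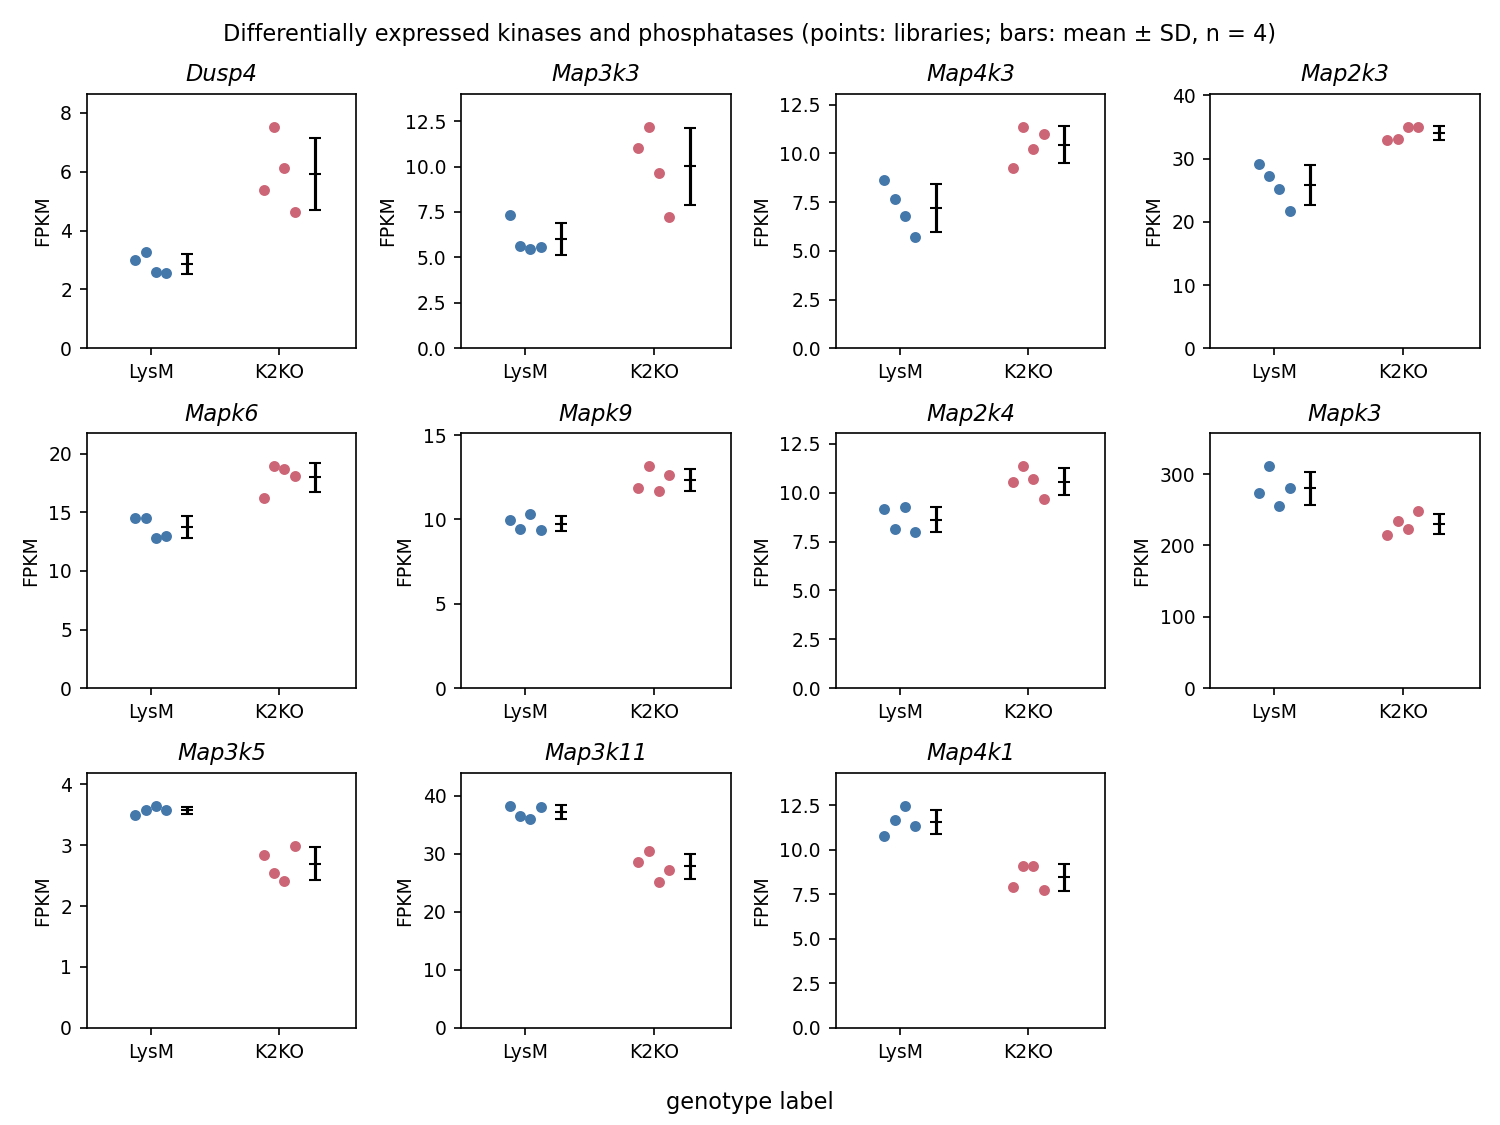
FPKM of the 11 differentially expressed genes in each library (points), with the mean and SD of each genotype label (black bars, n = 4), on linear axes that start at 0. Only in the panel of Map3k3 do points of the 2 groups overlap.

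Sequence upstream of the RefSeq start (GRCm38.p6) was read for 9 of the 11 genes, in windows of 250 bases. The windows of Map3k3 and Mapk9 are shown because, among windows that overlap no annotated exon, they belong to the kinases with the largest fold changes. Capitals mark matches of the KLF-type motif CACCC, which reads GGGTG on the other strand, the core of the sites that KLF factors are known to bind, of which the Mapk9 window holds 2 and the Map3k3 window none. The Map3k3 window lies at chr11:106084337-106084586 and the Mapk9 window at chr11:49846501-49846750, both on the plus strand.

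Map3k3: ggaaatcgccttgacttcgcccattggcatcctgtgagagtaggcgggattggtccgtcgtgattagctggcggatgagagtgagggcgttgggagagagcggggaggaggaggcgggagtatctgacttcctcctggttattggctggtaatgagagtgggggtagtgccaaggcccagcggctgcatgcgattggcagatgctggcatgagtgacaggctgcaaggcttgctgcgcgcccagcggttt
Mapk9: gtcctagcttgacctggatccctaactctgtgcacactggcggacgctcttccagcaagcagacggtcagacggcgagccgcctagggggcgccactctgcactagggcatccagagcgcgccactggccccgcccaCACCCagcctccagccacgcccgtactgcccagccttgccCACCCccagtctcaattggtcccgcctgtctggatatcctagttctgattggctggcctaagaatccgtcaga

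CACCC was found in 8 of the 9 windows, of genes that were higher and genes that were lower, and in 52.0% of all 32851 windows. The windows of Map4k3, Map2k3, Mapk6, Map3k5, Map3k11 and Map4k1 overlap annotated exons. GC content ran from 50.8% (Map4k1) to 82.4% (Map4k3) over the 9 windows. The share was not compared with windows of like GC content, and its difference from all windows was not tested. The CRE motif TGACGTCA, found in 1.55% of all windows, and the AP-1 motif TGANTCA, found in 6.75%, were in none of the 9. Motifs were sought on both strands, and a match is a description of the letters only.

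Of the phosphatases, Dusp4 (MKP-2, ENSMUSG00000031530.6, chr8:34807297-34819894, plus strand), a nuclear phosphatase of ERK, JNK and p38 that ERK signalling induces, had the largest difference of the 47 tested genes. It was listed at 2.98, 3.27, 2.58 and 2.57 FPKM in the LysM libraries and at 5.37, 7.52, 6.12 and 4.64 FPKM in those labelled K2KO. Every library of the second group was higher than every library of the first, with means of 2.85 ± 0.339 and 5.91 ± 1.23 FPKM and a log2 fold change of 1.01 ± 0.15 (SE; limma, adjusted p = 0.00676). The call held in each of the 13 other settings tried and with each of the 8 libraries left out, with log2 fold changes of 0.83 to 1.12. Dusp4 lies on the chromosome of Klf2, 37.5 Mb away.

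Dusp7 (ENSMUSG00000053716.9, chr9:106368632-106375724, plus strand), a cytoplasmic ERK phosphatase, is in none of the counts and figures, since the rule that chose the genes leaves it out. It was listed at 6.76, 6.42, 7.48 and 7.39 FPKM in the LysM libraries and at 14.9, 15.02, 10.5 and 10.6 FPKM in those labelled K2KO. All 4 of the latter were higher, with a log2 fold change of 0.83 ± 0.13 (limma, adjusted p = 0.00976) and of 0.92 after the correction for GC content described below (adjusted p = 0.0129). Rpl29, a ribosomal protein gene close to it on chromosome 9, had means of 0.150 and 382 FPKM in the same groups.

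Other phosphatases that inflammatory signals are known to induce did not pass. Dusp1 had 304 to 363 FPKM in the LysM group and 239 to 342 FPKM in those labelled K2KO (log2 fold change -0.26, 95% interval -0.53 to 0.01; limma, adjusted p = 0.142). Dusp2, a nuclear phosphatase of activated leukocytes, was listed at 3.58 to 4.22 and 2.99 to 3.91 FPKM, with a log2 fold change of -0.11 (-0.33 to 0.11). The JNK and p38 phosphatases Dusp10 and Dusp16 were lower in level still. Dusp10 was listed at 1.38 to 2.13 and 1.10 to 1.92 FPKM, with a log2 fold change of -0.11 (-0.54 to 0.33), and Dusp16 at 1.84 to 2.15 and 1.67 to 1.90 FPKM, with -0.17 (-0.40 to 0.05).

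The ERK phosphatases differed in level and in the sign of their fold changes. Dusp5, which holds ERK in the nucleus, was listed at 32.2, 42.0, 29.7 and 31.5 FPKM in the LysM libraries and at 36.0, 41.1, 52.1 and 52.1 FPKM in those labelled K2KO. The libraries overlapped and the log2 fold change of 0.42 ± 0.15 did not pass (limma, adjusted p = 0.0709), but it passed after quantile normalization (adjusted p = 0.0361), upper-quartile scaling (adjusted p = 0.0395) and the correction for GC content described below. Dusp6, the cytoplasmic ERK phosphatase, was listed at 7.15 to 10.4 and 7.47 to 9.30 FPKM, with a log2 fold change of -0.14 (95% interval -0.42 to 0.14). Dusp3, a small atypical DUSP, had almost the same level in both groups, 34.7 to 40.1 and 34.7 to 40.7 FPKM, with a log2 fold change of -0.01 (-0.17 to 0.16). Dusp12 was lower without overlap, 10.5 to 11.6 against 9.41 to 10.3 FPKM, but did not pass (log2 fold change -0.17; limma, adjusted p = 0.0642), and 891 bases of its exons lie opposite the gene Gm9929. The remaining 7 tested phosphatases lay between -0.30 and 0.55, with a smallest adjusted p of 0.0776 (limma). Of these 7, Dusp22 passed as lower and Dusp9 as higher without LysM0 (log2 fold changes -0.38 and 0.74, adjusted p = 0.0271 and 0.0259), and Dusp22 also with the column number as a block (adjusted p = 0.0338).

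The MAPK genes summed to 358 to 415 FPKM in the LysM group and 329 to 358 FPKM in those labelled K2KO, a sum that is mostly Mapk3. The MAP2K genes summed to 213 to 232 and 214 to 240 FPKM, the MAP3K genes to 98.1 to 101 and 90.1 to 100.2 FPKM, and the MAP4K genes to 38.0 to 41.3 and 40.8 to 43.6 FPKM. The DUSP genes, mostly Dusp1, summed to 450 to 508 and 405 to 499 FPKM. The ranges of the groups overlapped in all 5 classes, for the MAPK genes only by the lowest LysM library (357.9 FPKM) and the highest library labelled K2KO (358.5 FPKM), and no test was made on the sums.

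Some values may hold reads of other genes, since whether strand was used in counting is not given. On the opposite strand, exons of Map3k12 share 1573 bases with Pcbp2, which had a mean of 78.7 FPKM, Map3k10 shares 612 bases with Ttc9b, Dusp3 shares 604 bases with Gm20659, and Dusp5 shares 547 bases with an antisense gene that the table does not list. Map3k4 has a processed pseudogene, Gm11235, that is 98.5% identical over 333 bases, and Map3k7 one, Gm8188, that is 97.0% identical over 529 bases. Of the 11 differentially expressed genes, Map3k11 shares 430 bases with an unlisted gene and 89 bases with Pcnx3, and Map4k3 shares 108 bases with Gm9959, all on the opposite strand. Their part in the differences was not tested.

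Fold changes followed the GC content of the transcripts in these libraries. Across all 10899 tested genes with a GC value, Spearman's rho between log2 fold change and GC content was -0.401, and across the 47 kinases and phosphatases it was -0.289, where all genes share the same 8 libraries. Correcting every library by local regression on GC content and length of the transcript brought these to -0.01 and 0.16. After it, 10.1% of all genes passed, of which 485 were higher and 613 lower, where without it 1074 were higher and 940 lower. Of the 11 members, 7 kept their call: Dusp4 (log2 fold change 1.10), Map3k3 (0.74), Map2k3 (0.50), Mapk6 (0.28), Map3k11 (-0.31), Map4k1 (-0.36) and Map3k5 (-0.48), with limma adjusted p of 0.00845 to 0.0398. The other 4, Map4k3, Mapk9, Map2k4 and Mapk3, no longer passed. Dusp5 passed after it as well (0.53; adjusted p = 0.0415). With the column number as a block besides, Map3k11, Mapk6 and Dusp5 no longer passed (adjusted p = 0.0556, 0.0761 and 0.0741). Whether GC content itself produced the differences was not tested.

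**Figure D4:**
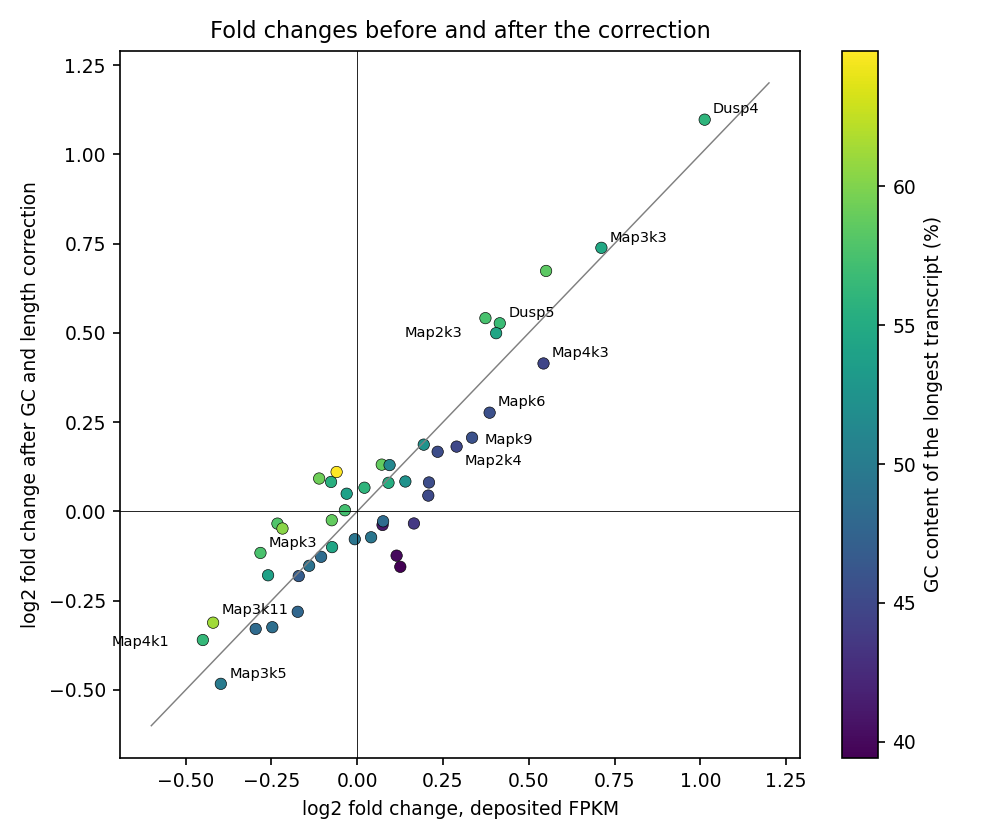
log2 fold changes of 46 tested genes from the deposited FPKM (horizontal axis) and after the correction for GC content and length (vertical axis), coloured by GC content, with a line where both are equal. Dusp4 and Map3k3 stay at 1.10 and 0.74, while Mapk3 moves from -0.28 to -0.12.

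Of 63 further genes of the pathway, 54 were tested and 10 passed, a share of 18.5% beside the 18.4% of all genes, and all 10 were higher in the libraries labelled K2KO. They came from several levels of the pathway. At its entry stood Braf and the exchange factors Sos1 and Sos2, with Rasa1, which switches RAS off, at 6.26 ± 0.850 and 9.28 ± 1.40 FPKM. Spag9 is a JNK scaffold, Rps6ka3 (RSK2) and Mapkapk3 are kinases that MAPKs activate, and Atf2 and Mef2a are transcription factors that they phosphorylate. Fold changes on the log2 scale ranged from 0.30 (Sos1) to 0.56 (Rasa1). After the GC correction they were 0.05 for Sos1, 0.14 for Atf2, 0.16 for Spag9 and 0.23 for Braf, Rps6ka3 and Mef2a. Sos2 then had 0.25 and Rasa1 0.37. With a pseudocount of 1 the change of Sos1 was 0.21 and under the limit. Its call was also lost with the column number as a block (limma, adjusted p = 0.0659). The groups did not overlap in 15 of the 54 genes, a share of 27.8% beside 23.1% of all genes, with 12 higher and 3 lower. The 3 lower were Mapkapk2 (MK2), a kinase that p38 activates, Rps6ka1 (RSK1) and the TPL2 partner Tnip2. Mapkapk2, at means of 102 and 87.4 FPKM, had a log2 fold change of -0.22 that was under the limit (limma, adjusted p = 0.0344), and Rps6ka1 and Tnip2 had -0.18 and -0.12 (adjusted p = 0.0561 and 0.146). After the GC correction Mapkapk2, Rps6ka1 and Tnip2 had -0.12, -0.10 and -0.02 (limma, adjusted p = 0.245, 0.238 and 0.878). The count depended on single libraries: it was 1 without LysM1, 4 without LysM2, 0 without LysM3 (limma, with 19 at an unadjusted p under 0.05), 2 without K2KO0, 2 without K2KO1 and 1 without K2KO2.

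Mapkapk3 (ENSMUSG00000032577.16, chr9:107254927-107289877, minus strand) alone of the 10 passed after the GC correction as well. The gene lies on chromosome 9 near Dusp7 (chr9:106368632-106375724), beside which the values of Rpl29 are given above. Whether its position bears on the difference was not tested. It was listed at 20.3, 19.0, 15.1 and 16.8 FPKM in the LysM libraries and at 25.6, 23.2, 25.7 and 25.3 FPKM in those labelled K2KO. All of the latter were higher, with a log2 fold change of 0.49 ± 0.09 (limma, adjusted p = 0.0132) and of 0.50 after the correction (adjusted p = 0.0166), and the call was lost without LysM3 (adjusted p = 0.0576) and with no filter on low values (adjusted p = 0.0545). Among the groups of the list, none of the 5 tested TAK1 and TPL2 partners and none of the 4 tested MAP4K relatives passed (limma, with 1 of each at an unadjusted p under 0.05).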

How the data were processed

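Total RNA of BMDMs was sequenced with a stranded total RNA kit. The authors aligned the reads to mm10 and deposited 1 table of FPKM per gene and library, with no pooling of replicates. The study's methods name TopHat2 and Cufflinks, and the submitters' processing notes name STAR, Cufflinks and Cuffdiff, with no versions. Whether strand was used in counting is not given in the sources used here, and the RNA kit differs between the labels and the methods. All 8 columns were mapped to a genotype and none to a mouse.

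Genes were matched to GENCODE M21 (GRCm38) for 23645 of 23761 rows. The FPKM were analysed as log2(FPKM + 0.1) with limma 3.58.1 (eBayes with an intensity trend, no covariate) in R 4.3.3, for genes with a mean of at least 1 FPKM, with Benjamini-Hochberg adjustment over all of them. Klf2 was also compared by an exact two-sided permutation test over 35 splits. Alternatives were other pseudocounts, filters, scalings and tests, each library left out, a correction by local regression (span 0.3) and a block on the number in the column name. Copies were sought with blastn 2.17.0 (at least 95% identity over 200 bases). The limma fit was tested on simulated data with 200 of 10920 genes changed by 1 log2 unit. It recovered 85% of them, with 3 false calls among 173. The noise was independent between genes, and changes as small as those of the called kinases were not simulated. The genes named are those differentially expressed, those whose groups did not overlap, the 3 most abundant of each class and a list of well-known members. Members, lists and the GC correction were chosen with earlier results of these data known. Dusp7 was left out of the members by name. Of the kinases and of the further pathway genes, 1 each enters the counts but is not reported here.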

Additional observations from a re-analysis of the deposited data

Results flagged for a closer look

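In 82 groups of 4 libraries, formed by 41 named genes and both genotypes, 1 library stood apart from the other 3 by Dixon's criterion in 6, where chance alone gives about 1 in 20. In LysM0, Map3k3 stood at 7.36 FPKM with the other LysM libraries at 5.46 to 5.65, Map3k7 at 7.71 FPKM with the others at 7.18 to 7.25, and Braf at 2.20 FPKM with the others at 1.63 to 1.71. In each of these 3 cases LysM0 was nearest to the libraries labelled K2KO. In K2KO3, Braf stood at 2.10 FPKM with the others of its group at 2.62 to 2.73. Map4k4 stood at 12.3 FPKM in K2KO0 with the others at 12.8 to 12.9, and Mapkapk3 at 23.2 FPKM in K2KO1 with the others at 25.3 to 25.7.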

How the results depend on the processing

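Of the 10 kinases, 1 phosphatase, 10 further pathway genes and 2014 genes in all that were differentially expressed, with no filter 5, 1, 0 and 483 were, and with ordinary least squares 5, 1, 2 and 746. With a log2 fold change over 1 these counts were 0, 1, 0 and 110 (limma gave 12 kinases and 21 further genes at an unadjusted p under 0.05, and 27 further genes with no filter). Quantile normalization gave 8, 2, 5 and 1534, upper-quartile scaling 9, 2, 12 and 2083, and the GC and length correction 6, 2, 1 and 1098. Upper-quartile scaling called 2083 genes, 64.1% of them higher, against 53.3% as deposited and 44.2% after the GC and length correction. With 1 library left out the ranges were 3 to 12 kinases, 1 to 3 phosphatases, 0 to 13 further genes and 337 to 2837 genes. The column numbers do not pair the libraries (correlations of same-numbered libraries of -0.07 to 0.07). The replicate block gave 10, 2, 9 and 2057, and with the GC correction 4, 2, 2 and 868. Of the tested members reported here, signs turned for Dusp3 (0.061), Dusp19 (-0.031) and Map3k12 (-0.022) with quantile normalization and for Dusp3 (0.037), Map2k5 (0.013) and Mapk7 (0.0082) with upper-quartile scaling. After the GC correction, with or without the block, they turned for Klf2 (0.039), Map2k5 (0.0496), Dusp2 (0.092), Map3k10 (0.11), Map3k1 (-0.072), Mapk8 (-0.12), Map3k2 (-0.16), Map3k12 (-0.028), Mapk7 (0.0033), Dusp11 (-0.034), Dusp19 (-0.038) and Dusp23 (0.083). None of these passed the test in any of these fits. With 1 library left out, they turned for Dusp10 (-0.22 to 0.032), Dusp19 (-0.0024 to 0.17), Mapk7 (-0.083 to 0.0044), Dusp3 (-0.048 to 0.029), Map2k5 (-0.058 to 0.0202), Map2k7 (-0.0021 to 0.056), Map3k1 (-0.022 to 0.086) and Map3k10 (-0.14 to 0.047). FPKM hold no counts, so the error of low genes could not be set apart from that of the libraries.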

Other observations

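The rows that are neither kinase nor phosphatase stood low. The read-through row under the symbol Map2k7 had 0.527 to 0.850 FPKM in the LysM group and 0.645 to 0.880 FPKM in those labelled K2KO, where Map2k7 itself was listed at 15.6 to 16.9 and 15.2 to 17.2 FPKM. Map3k7cl was listed at 0 in all libraries but K2KO3, at 0.035 FPKM. In the pairs of Map2k3 with Map2k6 and of Mapk9 with Mapk8, 1 gene held most of the FPKM. Map2k2 and Map2k1 were more even, with ratios of 1.72 in the LysM libraries and 1.38 in those labelled K2KO. Map2k6, at a mean of 0.613 FPKM, was below the level for testing. The level of Map2k3 over that of Map2k6, both p38 activators, was 54.1 ± 10.2 in the LysM libraries and 46.7 ± 6.15 in those labelled K2KO, and the level of Mapk9 over that of Mapk8 was 4.67 ± 0.257 and 5.47 ± 0.803 (SD, n = 4 each). These ratios were chosen after the values were seen and were not tested.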
